A study of Mus musculus with 2 samples.

Results

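Cytochrome c oxidase (COX, complex IV) is the last enzyme of the mitochondrial respiratory chain, and 8 genes that encode alternative isoforms of its nuclear subunits were compared between E14.5 mouse ureters labelled Tbx2/Tbx3cDKO and control ureters. The genes are Cox8b, Cox7a1 and Cox6a2, which encode muscle-type isoforms, Cox4i2, the lung-type isoform, and their widespread counterparts Cox8a, Cox7a2, Cox6a1 and Cox4i1. They were taken by name, through the accession that the array gives for each probe, and 9 of the 39396 probes measured on both arrays belong to them. All 8 were among the 20629 genes that passed the filter on dim probes. The genes were picked with their ratios of labelled knockout over control already known, Cox8b as the one that stood out and the others as its relatives, so their ratios below are a description and carry no test.

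COX passes electrons from cytochrome c to oxygen and pumps protons across the inner mitochondrial membrane. Its catalytic core is encoded by mitochondrial DNA, while the surrounding subunits are nuclear and some of them, including subunits 4, 6A, 7A and 8, exist as tissue isoforms. The muscle-type isoforms of subunits 6A, 7A and 8 are known from heart and skeletal muscle, those of 7A and 8 also from brown fat, and the lung-type isoform of subunit 4 from lung and from pericytes and smooth muscle of vessels.

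The labelled knockouts carried 1 Cre allele at the Tbx18 locus, Tbx18(cre/+), with Tbx2(fl/fl) and with Tbx3(fl/fl), in which Cre made from that locus acts in the progenitors of the ureteric mesenchyme on floxed alleles of the T-box transcription factor genes Tbx2 and Tbx3. The controls carried Tbx18(+/+) with Tbx2(fl/?) and Tbx3(fl/?), so they had no Cre, kept both copies of Tbx18, and their second alleles of Tbx2 and Tbx3 are not specified. All ureters were from NMRI embryos, and each of 2 two-colour Agilent arrays held 1 labelled knockout RNA and 1 control RNA of the same sex. In the female pair the labelled knockout RNA was in AlexaFluor647, and for males the dyes were swapped, which ties sex to dye orientation, so that these cannot be told apart. The sources used here do not give the number of embryos behind an RNA. The p-values rest only on the spread between these 2 pairs, largely as pooled over all genes tested.

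The promoters of the gene that differed, of a second muscle-type isoform and of the widespread counterpart of Cox8b are shown as the 250 bases before each gene's start, from RefSeq on GRCm38.p6 (5 of the 8 genes matched an entry). They lie at chr7:140900447-140900696 on the minus strand, chr7:30183921-30184170 on the plus strand and chr19:7217617-7217866 on the minus strand. Each is written 5′ to 3′ in the direction of its gene, and capitals mark CG dinucleotides and, in Cox8b, the E-box CAGCTG, a motif of basic helix-loop-helix factors.
Cox8b: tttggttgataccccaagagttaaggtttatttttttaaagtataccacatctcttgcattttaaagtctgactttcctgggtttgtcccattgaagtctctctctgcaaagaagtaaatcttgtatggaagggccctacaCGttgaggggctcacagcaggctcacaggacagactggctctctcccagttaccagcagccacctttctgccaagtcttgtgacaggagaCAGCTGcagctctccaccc
Cox7a1: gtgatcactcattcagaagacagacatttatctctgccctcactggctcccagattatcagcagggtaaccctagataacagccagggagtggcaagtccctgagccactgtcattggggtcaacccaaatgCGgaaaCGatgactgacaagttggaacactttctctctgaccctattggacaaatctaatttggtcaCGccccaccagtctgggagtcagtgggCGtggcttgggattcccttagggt
Cox8a: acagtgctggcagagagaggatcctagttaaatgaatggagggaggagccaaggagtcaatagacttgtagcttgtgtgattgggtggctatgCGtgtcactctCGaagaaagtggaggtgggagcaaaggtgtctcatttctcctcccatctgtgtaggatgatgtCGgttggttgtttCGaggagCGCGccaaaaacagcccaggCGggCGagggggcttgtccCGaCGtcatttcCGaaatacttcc

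The Cox8b window held 1 CG dinucleotide at 47.2% G and C, and the Cox7a1 window held 4 at 51.2%. The widespread isoforms had more, with 11 CG dinucleotides and 52.8% G and C for Cox8a, 14 and 54.8% for Cox7a2, and 26 and 62.8% for Cox6a1. Over 32851 promoters of this length the medians were 6 CG dinucleotides and 52.4%. Both strands were searched for the T-box core GGTGTG (in 16.3% of all promoters), the E-box CAGCTG (13.0%), the ETS and GABPA site CCGGAAGT (2.88%), the GC box GGGCGG (32.7%) and the CArG box of serum response factor (1.47%). Cox8b had 1 E-box, from position -19 to -14 before the start, Cox7a2 had 1 GC box and Cox6a1 had 2. None of the matches overlapped another, and Cox7a1 and Cox8a had 0 matches to these motifs. The motifs were chosen with the sequences in view, and the searches are a description of these windows.

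On each array 157716 spots were read, 4 per probe for the genes described here, and 0 were saturated. The share of spots well above background was 66.9% (female) and 71.6% (male) in the labelled knockout channels and 70.8% (female) and 64.3% (male) in the control channels. Over all genes, 759 had an adjusted p under 0.05 by limma, 385 of them higher and 374 lower in labelled Tbx2/Tbx3cDKO ureters, which is 3.68% of the genes tested. At an unadjusted p under 0.05, 7.58% of all genes were higher and 6.55% lower, the background for the unadjusted counts given with the gene lists below. Tbx3 was lower in labelled Tbx2/Tbx3cDKO ureters, with a mean log2 ratio of -1.09 ± 0.10 (SD, n = 2 pairs, limma adjusted p = 0.000862). Tbx2 went against its label, with a log2 ratio of 0.86 ± 0.12 (SD, n = 2 pairs, limma adjusted p = 0.00236). The sources used here do not place the Tbx2 probe inside or outside the deleted part of the gene, so it does not settle the label. Tbx18, whose locus carries Cre in labelled knockouts, had a log2 ratio of 0.15 in either pair and did not pass (limma adjusted p = 0.379).

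Cox8b, which encodes the muscle-type isoform of subunit 8, a small subunit that spans the inner membrane, was higher in both labelled Tbx2/Tbx3cDKO RNAs. Its log2 intensity was 12.37 in the female and 12.30 in the male labelled knockout RNA, against 10.41 in the female and 10.51 in the male control RNA. The lowest labelled knockout value was thus above the highest control value, and RNAs of the same genotype lay close together. The log2 ratio was 1.96 in females and 1.79 in males, a mean of 1.87 ± 0.12 (SD, n = 2 pairs), or 3.88-fold and 3.45-fold.

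**Figure D1:**
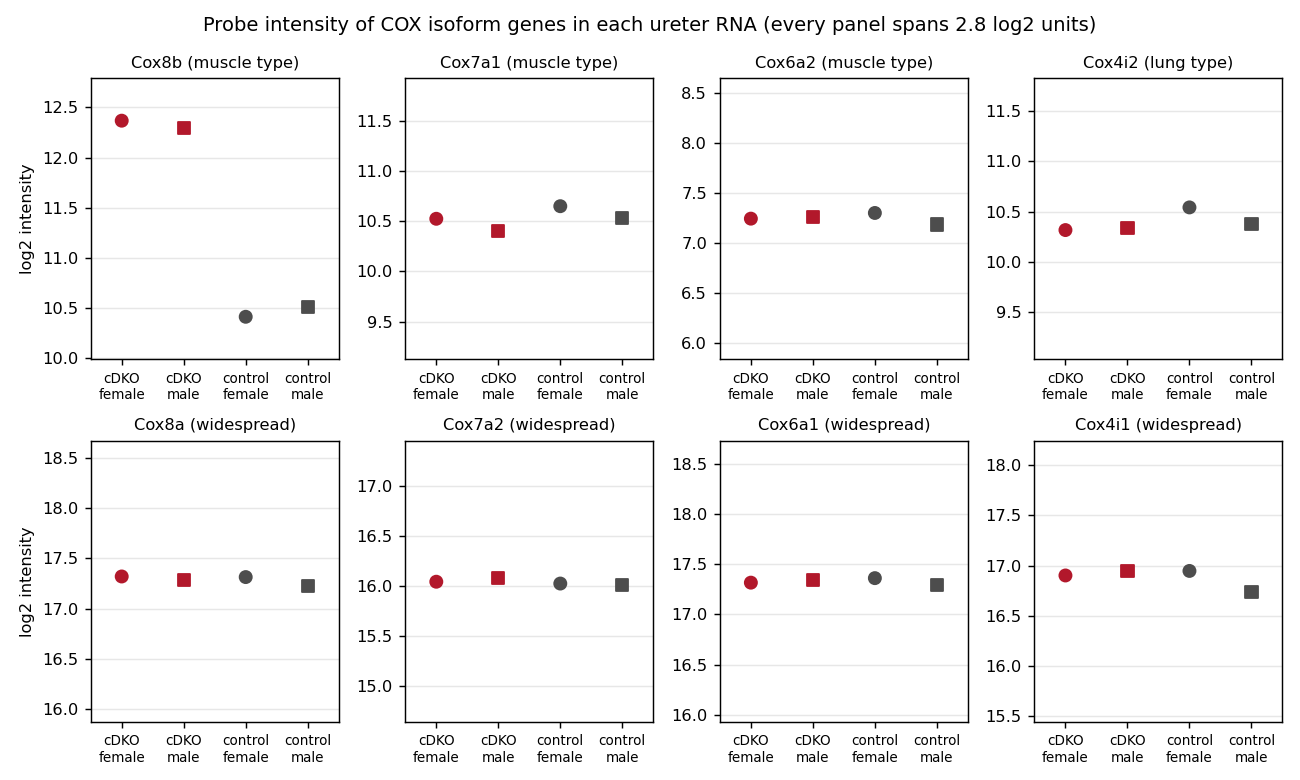
Normalized log2 intensity of each COX isoform gene in the 4 ureter RNAs, with labelled Tbx2/Tbx3cDKO RNAs in red left of control RNAs in grey, circles for female and squares for male RNAs, and 1 point per RNA. All panels span the same log2 distance, and the Cox8b points of labelled knockouts, at 12.37 and 12.30, stand apart from those of controls at 10.41 and 10.51.

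The separate spots of the Cox8b probe lay close to these means. They ranged from 1.91 to 2.01 in females and from 1.72 to 1.90 in males, over 4 spots each, and none was marked as non-uniform. Before normalization the Cox8b signal was 5835 and 4930 in the female and male labelled knockout RNAs, against 1255 and 1477.5 in the female and male control RNAs. These signals were 48.6 and 143 times the local background in labelled knockouts and 36.5 and 13.0 times in controls, so Cox8b was measured well above background in all 4 RNAs. The red channel had the higher background in both pairs, and the red channel held the labelled knockout RNA in the female and the control RNA in the male pair. In the authors' deposited table the probe had signed folds of 4.08 and 3.60 for the female and male pair.

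Among all 20629 genes, Cox8b ranked 8 from the highest mean log2 ratio, and 0.116% of genes had a larger ratio in either direction. At least a 2-fold higher value in both pairs was seen for 43 genes, or 0.208%. The genes whose 2 ratios lay nearest to those of Cox8b, by Euclidean distance over the 2 pairs, were Mup18, a major urinary protein gene, at 0.115, Lsamp, which encodes a neural cell adhesion protein, at 0.258, and Gabra2, which encodes a GABA-A receptor subunit, at 0.265, along with 2 without a symbol. Mup18 had log2 ratios of 1.88 and 1.70 in the female and male pair and was well above background in 2 labelled knockout RNAs and 1 control RNA.

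**Figure D2:**
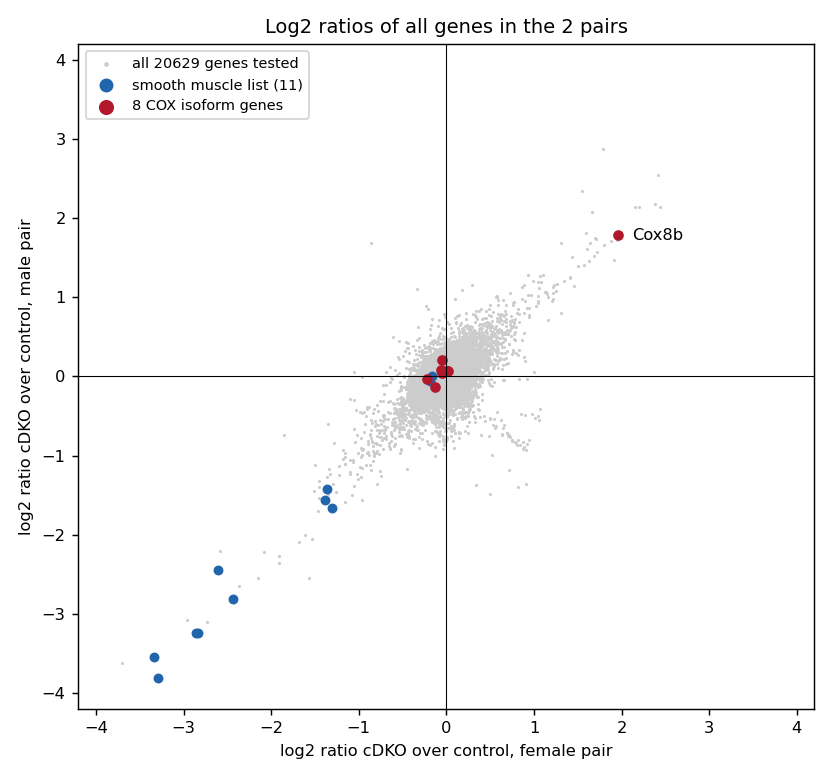
Log2 ratio of labelled Tbx2/Tbx3cDKO over control in the female pair (x axis) against the male pair (y axis) for all 20629 genes (grey), the 11 tested genes of a smooth muscle list (blue) and the 8 COX isoform genes (red). Cox8b lies at 1.96 and 1.79, the other 7 COX isoform genes lie near 0, and 9 of the smooth muscle genes lie far below it.

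Cox8a, the widespread isoform of subunit 8, did not share this difference. Its brighter probe had log2 intensities of 17.32 and 17.29 in the female and male labelled knockout RNAs, against 17.31 and 17.22 in the female and male control RNAs. The groups overlapped, and the log2 ratios were 0.0061 and 0.068. Its second probe had log2 intensities of 17.25 and 17.21 in labelled knockouts, against 17.23 and 17.22 in controls, with log2 ratios of 0.019 and -0.0096. The 2 probes averaged 0.037 ± 0.044 and 0.0048 ± 0.020 (SD, n = 2 pairs), and the difference of the log2 ratios of Cox8b and Cox8a was 1.95 in females and 1.72 in males, a mean of 1.84 ± 0.16. Levels of the 2 isoforms cannot be set against each other, since intensities of different probes are not on 1 scale.

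Cox7a1 encodes the muscle-type isoform of subunit 7A. Its log2 intensity was 10.53 and 10.40 in the female and male labelled knockout RNAs, against 10.65 and 10.53 in the female and male control RNAs. Cox7a1 was thus slightly lower within each pair, by a similar amount, while labelled knockout and control values nearly met across the pairs. The log2 ratio was -0.13 in either pair, with an SD of 0.0037, and single spots ranged from -0.16 to -0.060 in females and from -0.18 to -0.084 in males. The spread between spots of 1 pair was thus larger than the spread between the 2 pairs. With median centring the ratios were -0.18 and -0.015 in the female and male pair, so the closeness of the pairs depends on the processing.

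Cox7a2, the widespread isoform of subunit 7A, had log2 intensities of 16.04 and 16.08 in the female and male labelled knockout RNAs, against 16.02 and 16.01 in the female and male control RNAs. Both labelled knockout values lay above both control values by a small distance, and the log2 ratios were 0.018 and 0.070 (mean 0.044 ± 0.036, SD, n = 2 pairs). With median centring the Cox7a2 ratios were 0.28 and -0.10 in the female and male pair, so no direction is given. The difference between the log2 ratios of Cox7a1 and Cox7a2 was -0.14 and -0.20 in the female and male pair (mean -0.17 ± 0.040), opposite in sign to that of the subunit 8 isoforms. With median centring that sign held in females only, since male ratios were then -0.015 for Cox7a1 and -0.10 for Cox7a2. The genes nearest to Cox7a1 in their ratios were Bex2, Tab3, Lca5l and Plrg1 along with 1 without a symbol, at distances of 0.00334 to 0.00428.

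**Figure D3:**
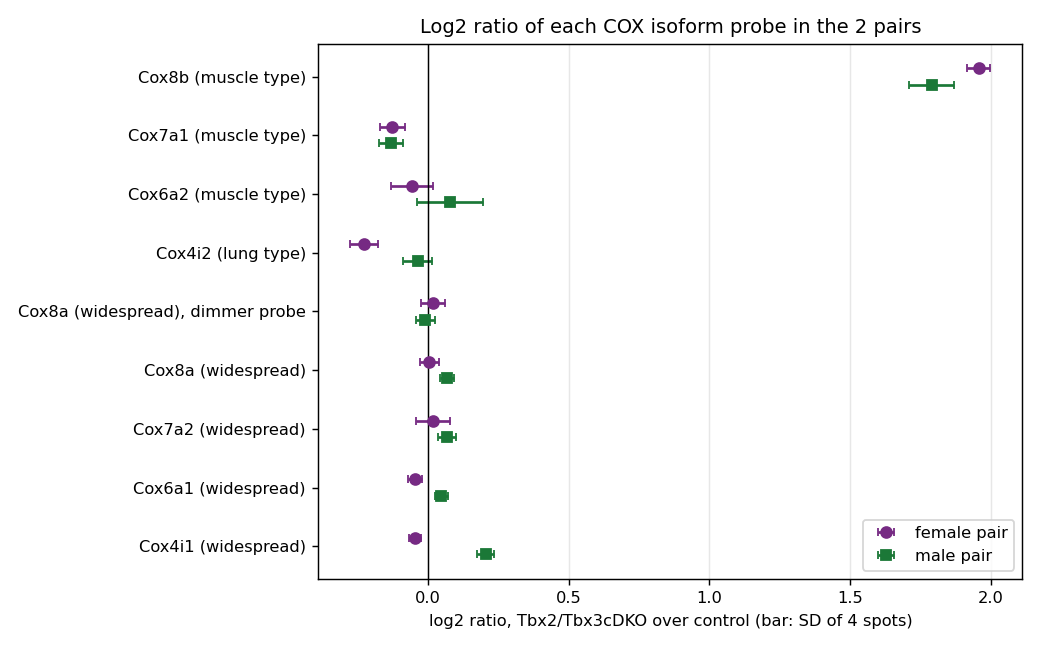
Log2 ratio of labelled Tbx2/Tbx3cDKO over control for each of the 9 COX isoform probes in the female pair (circles) and the male pair (squares). Bars are the SD of the 4 spots of a probe on 1 array, and Cox8b lies near 1.9 while the other 8 probes lie between -0.23 and 0.20.

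Cox6a2 encodes the muscle-type isoform of subunit 6A and was close to the background of the arrays. Its log2 intensity was 7.24 and 7.26 in the female and male labelled knockout RNAs, against 7.30 and 7.18 in the female and male control RNAs. The control values lay on both sides of the labelled knockout values. The raw signal was 1.74 and 3.56 times the local background in labelled knockouts and 3.79 and 1.59 times in controls, and in the red channel of either array 3 of its 4 spots were well above background. The log2 ratios were -0.057 and 0.079 (mean 0.011 ± 0.096, SD, n = 2 pairs), and a change of Cox6a2 would be hard to detect at this signal.

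Cox6a1, its widespread counterpart, was bright in all RNAs. Its log2 intensity was 17.32 and 17.34 in the female and male labelled knockout RNAs, against 17.36 and 17.30 in the female and male control RNAs. The log2 ratios of Cox6a1 were -0.045 and 0.048 (mean 0.0013 ± 0.066), so the groups overlapped and the 2 pairs differed in sign. The difference between the log2 ratios of Cox6a2 and Cox6a1 was -0.012 and 0.031 in the female and male pair.

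Cox4i2, the lung-type isoform of the regulatory subunit 4, is known as induced by low oxygen. Its log2 intensity was 10.32 and 10.34 in the female and male labelled knockout RNAs, against 10.54 and 10.37 in the female and male control RNAs. Both labelled knockout values lay below both control values, clearly in the female pair and narrowly in the male pair, with log2 ratios of -0.23 and -0.036 (mean -0.13 ± 0.13, SD, n = 2 pairs). With median centring the Cox4i2 ratios were -0.28 and 0.078 in the female and male pair, so no direction is given.

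Cox4i1, the widespread isoform of subunit 4, had log2 intensities of 16.90 and 16.94 in the female and male labelled knockout RNAs, against 16.95 and 16.74 in the female and male control RNAs. Its log2 ratio was -0.045 in females and 0.20 in males (mean 0.080 ± 0.18), the widest gap between pairs of the 8 genes, and the control values lay on both sides of the labelled knockout values. Spots of Cox4i1 ranged from -0.063 to -0.012 in females and from 0.18 to 0.24 in males, so the gap between the arrays exceeded the spread within each. The difference between the log2 ratios of Cox4i2 and Cox4i1 was -0.18 and -0.24 in the female and male pair. With median centring its sign held in females only, since male ratios were then 0.078 for Cox4i2 and -0.056 for Cox4i1.

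Of the 8 COX isoform genes, 1 (Cox8b) was past the threshold of the whole-table fit and 7 were not, beside 3.68% of all genes (1.87% higher and 1.81% lower), and nothing is read from this count because the contrast chose the genes. The median log2 ratio was 0.024 over the 8 genes and -0.0021 over all genes tested. A mean log2 ratio within 0.2 of 0 was found for 7 of the 8, and for 18170 of the 20629 genes tested. The 2 pairs had opposite signs for 3 of the 8 genes, beside 44.2% of all genes. For the 7 genes other than Cox8b the authors' deposited table held signed folds between -1.18 (Cox4i2, female pair) and 1.19 (Cox4i1, male pair).

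The other parts of the respiratory chain were read from lists of genes by function. Of 8 further nuclear COX subunits and associated proteins, 0 passed the limma test in either direction (0 at an unadjusted p under 0.05), and their median log2 ratio was 0.044. Their ratios lay between -0.065 for Ndufa4 and 0.094 for Cox7b, a small membrane subunit, with 0.070 for Cox5a, which binds the matrix side of the enzyme. The list's 3 mitochondrially encoded subunits matched no probe and were not analysed here. The testis-type isoforms Cox7b2 and Cox6b2 had log2 ratios of -0.15 and 0.013, and Cox8c, the testis-type isoform of subunit 8, was not well above background in any RNA. Of 24 COX assembly and expression factors, 0 passed (0 at an unadjusted p under 0.05), with -0.14 for Cox11, which delivers copper to the enzyme, and -0.096 for Cox19.

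Among 74 respiratory chain subunits other than the 8 isoform genes, 0 passed as higher and 1 as lower, or 1.35%, and their median log2 ratio was 0.024. The gene that passed was Ndufv3, an accessory subunit of complex I, at -0.41 and -0.50 in the female and male pair (mean -0.46 ± 0.065, limma adjusted p = 0.0192). A second probe of Ndufv3 had a mean of -0.12 and did not pass, and the call was lost with the scanner software's processed signals, with median centring and with the deposited table (adjusted p between 0.00686 and 0.340 over the alternatives). The other subunits, none of which passed, had means from -0.077 for Atp5pb to 0.14 for Ndufb4. By complex, the medians were 0.024 over 36 genes of complex I, 0.012 over 14 genes of complexes II and III with cytochrome c, and 0.013 over 16 genes of ATP synthase. Uqcr10 and Uqcrc1 of complex III had 0.12 and 0.089, and Atp5k of ATP synthase had 0.065.

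A list of muscle-type isoforms of other metabolic proteins was read beside Cox8b. It also held Acadm, which is not a muscle-type isoform and had a log2 ratio of 0.026, and the counts that follow include it. Of 11 listed, 9 were tested and 0 passed in either direction (1 higher and 1 lower at an unadjusted p under 0.05), with a median log2 ratio of 0.010, and 1 passed as higher when the variance was fitted with an intensity trend. Pygm, the muscle glycogen phosphorylase, had 0.29 ± 0.040 (limma adjusted p = 0.0797), and Mb, the oxygen-binding myoglobin, had -0.25 ± 0.044 (limma adjusted p = 0.131). Ckmt2, the mitochondrial creatine kinase of striated muscle, was not well above background in any RNA. Of 10 widespread counterparts 0 passed (0 at an unadjusted p under 0.05), with a median of -0.0068 and values of -0.12 for Pfkp and -0.12 for Ckb. Second probes of Pfkp and Ckb had 0.043 and -0.17.

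Regulators of mitochondrial biogenesis and genes of the response to low oxygen were read in the same way. Of 13 biogenesis regulators 0 passed (0 at an unadjusted p under 0.05), with a median log2 ratio of -0.0025. Ppargc1a, the coactivator of mitochondrial genes, had 0.12 at the probe used and -0.066 at its other probe, and Tfb1m had -0.11. Of 11 genes of the hypoxia response 0 passed (0 higher and 1 lower at an unadjusted p under 0.05), with a median of -0.025, -0.25 for Egln3, an oxygen sensor, and 0.14 for Ndufa4l2.

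**Figure D4:**
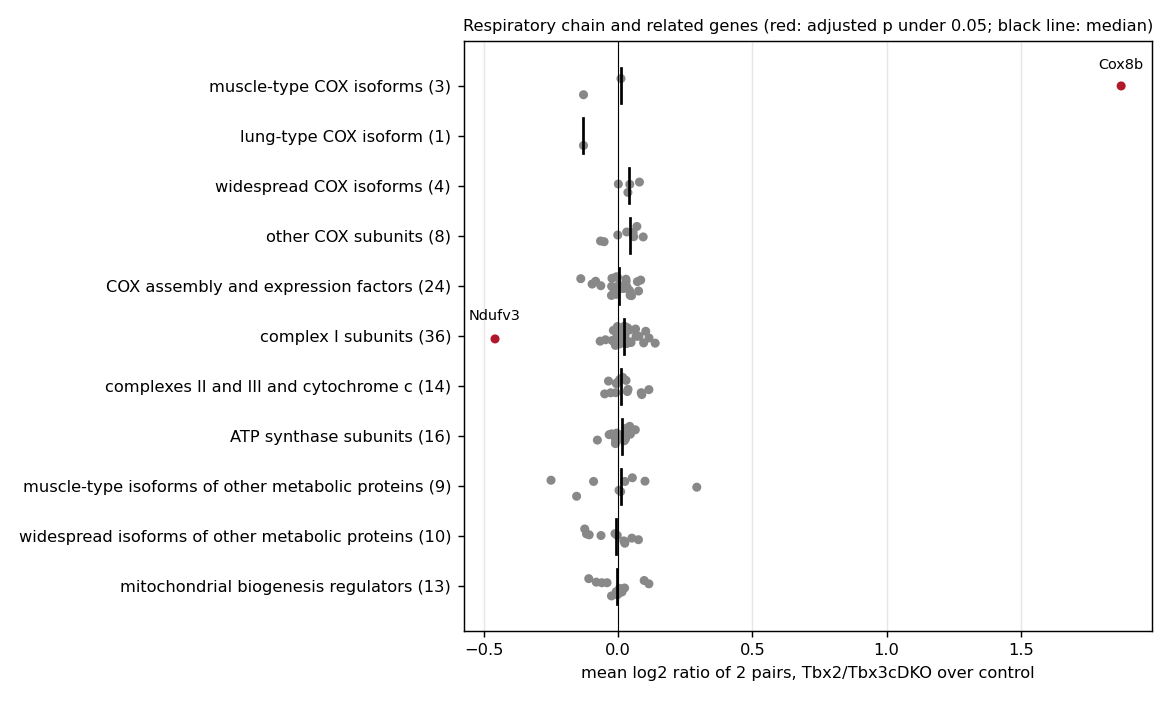
Mean log2 ratio of labelled Tbx2/Tbx3cDKO over control (x axis, 2 pairs) for each tested gene of the COX isoform, respiratory chain and metabolic lists, with the number of genes in brackets and a black line at each median. Red points have an adjusted p under 0.05: Cox8b at 1.87, whose list was chosen from this contrast, and Ndufv3 at -0.46.

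Cox8b RNA is best known from striated muscle and brown fat, so markers of these and other cell types were measured beside it. In a bulk tissue, fewer cells of a type and less RNA per cell cannot be told apart. Of 22 striated muscle markers 18 were tested, 0 passed as higher and 3 as lower, and the median log2 ratio was -0.17 (1 higher and 8 lower at an unadjusted p under 0.05). The log2 of their summed intensity was 15.09 and 14.82 in the female and male labelled knockout RNAs, against 15.79 and 15.94 in the female and male control RNAs, but 1 gene, Actc1, carried most of this sum. Without it the log2 sums were 13.85 and 13.78 in the female and male labelled knockout RNAs, against 14.12 and 14.19 in the female and male control RNAs, and the mean difference was -0.34 in place of -0.91. Leaving Actc1 out was chosen after seeing the data, and the part of striated muscle cells in the Cox8b values was not tested. The 3 that fell were Acta1, the actin of skeletal muscle, at -2.06 ± 0.69 (limma adjusted p = 0.00462), Actc1, the actin of heart muscle, at -1.26 ± 0.43 (limma adjusted p = 0.00637), and Myl7, an atrial myosin light chain, at -0.42 ± 0.078 (limma adjusted p = 0.0286). The calls of Acta1 and Actc1 were lost with the deposited table, that of Acta1 also with robust eBayes, and that of Myl7 with median centring and without the replicate block. Myl7 was dim, at a level close to that of Cox6a2. Its log2 intensity was 7.22 and 7.34 in the female and male labelled knockout RNAs, against 7.58 and 7.81 in the female and male control RNAs. The myogenic regulators Myod1 and Myog had -0.15 and -0.24 and did not pass. They were also dim, at mean log2 intensities of 7.43 and 7.76, and Myf5 was not well above background in any RNA.

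Of 9 brown fat markers 4 were tested and 0 passed (0 at an unadjusted p under 0.05), with log2 sums of 11.32 and 11.36 in labelled knockouts, against 11.40 and 11.25 in controls. Ucp1, the uncoupling protein that defines brown fat, was not well above background in any RNA, nor were Cidea, Elovl3 and Lhx8, while Ebf2 had a mean log2 ratio of 0.081 and Zic1 of 0.070. A second Zic1 probe, too dim to be kept by the filter, had 0.55 in females and 0.55 in males. Dio2 was not kept either, though all its spots were well above background in the male labelled knockout and the female control RNA. Of 10 general adipocyte markers 4 were tested and 0 passed (0 higher and 1 lower at an unadjusted p under 0.05), with log2 sums of 14.91 and 14.87 in labelled knockouts, against 15.05 and 15.02 in controls. Fabp4 had -0.24 and Pparg -0.11, and Adipoq, Cfd, Cidec and Lep were not well above background in any RNA. Plin1 and Retn were also untested but not absent. All Plin1 spots were well above background in the male labelled knockout and the female control RNA. For Retn a share of 0.75 was, at its brightest, in the male labelled knockout RNA only.

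Smooth muscle markers were far lower in labelled Tbx2/Tbx3cDKO ureters, the opposite direction to Cox8b. Of 12 listed, 11 were tested, 9 passed as lower and 0 as higher, and the median log2 ratio was -2.53. The log2 of their summed intensity was 16.79 and 16.73 in the female and male labelled knockout RNAs, against 18.38 and 18.61 in the female and male control RNAs. Actg2, Myh11, Cnn1 and Acta2, which encode contractile proteins, had log2 ratios of -3.55, -3.44, -3.05 and -3.04. The part of this shift in the Cox8b values was not tested.

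Markers of the remaining cell types moved less, as sets, than those of smooth muscle. Of 9 pericyte markers 1 passed as higher (4 higher and 0 lower at an unadjusted p under 0.05), Kcnj8, a potassium channel subunit, at 0.44 ± 0.044 (limma adjusted p = 0.0201), a call lost with processed signals, median centring and the deposited table. Rgs5 and Abcc9 had 0.34 and 0.46 without passing. The pericyte log2 sums were 15.58 and 15.51 in labelled knockouts, against 15.46 and 15.31 in controls. Of 8 endothelial and 6 immune cell markers 0 passed (3 and 4 higher and 0 lower at an unadjusted p under 0.05, beside 7.58% higher and 6.55% lower of all genes), with medians of 0.18 and 0.19, and Egfl7 and Kdr had 0.32 and 0.30, Lyz2 and Ptprc 0.32 and 0.29. A second probe of Kdr had 0.13. The endothelial log2 sums were 16.61 and 16.89 in labelled knockouts, against 16.55 and 16.52 in controls, and the immune cell sums 14.70 and 14.70 in labelled knockouts, against 14.51 and 14.54 in controls. Of 9 markers of neurons and glia 3 passed as higher, Fabp7 at 0.71, Prph at 0.69 and Dbh at 0.62, of which that of Dbh was lost under 6 of 11 alternatives. All 10 urothelial markers and all 8 of ureteric mesenchyme were above the filter. So were all 9 pericyte, 8 endothelial, 6 immune cell and 9 neuron and glia markers, so passing it does not identify the tissue. Of the urothelial markers 0 passed (2 higher and 2 lower at an unadjusted p under 0.05), with -0.29 for Upk1b and 0.27 for Upk3a, and log2 sums of 17.48 and 17.56 in labelled knockouts, against 17.67 and 17.61 in controls. Of the mesenchymal markers 1 passed as higher, Osr1 at 0.43, and 2 as lower, Foxf1 at -0.49 and Pdgfra at -0.39, and each of these calls was lost with processed signals, median centring and the deposited table. A second probe of Foxf1 had -0.38 and did not pass when each probe was fitted by itself. The mesenchymal log2 sums were 17.83 and 17.85 in labelled knockouts, against 18.03 and 17.99 in controls. The part of these markers in the Cox8b values was not tested.

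The genes that lie next to Cox8b on its chromosome in the RefSeq table did not pass the test. Sirt3, a mitochondrial deacetylase, and Psmd13, a proteasome subunit, on one side had mean log2 ratios of 0.14 and 0.10 (limma adjusted p = 0.459 and 0.744). Nlrp6, an inflammasome sensor, and Pgghg on the other side had -0.0090 and 0.070 (limma adjusted p = 0.992 and 0.904).

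**Figure D5:**
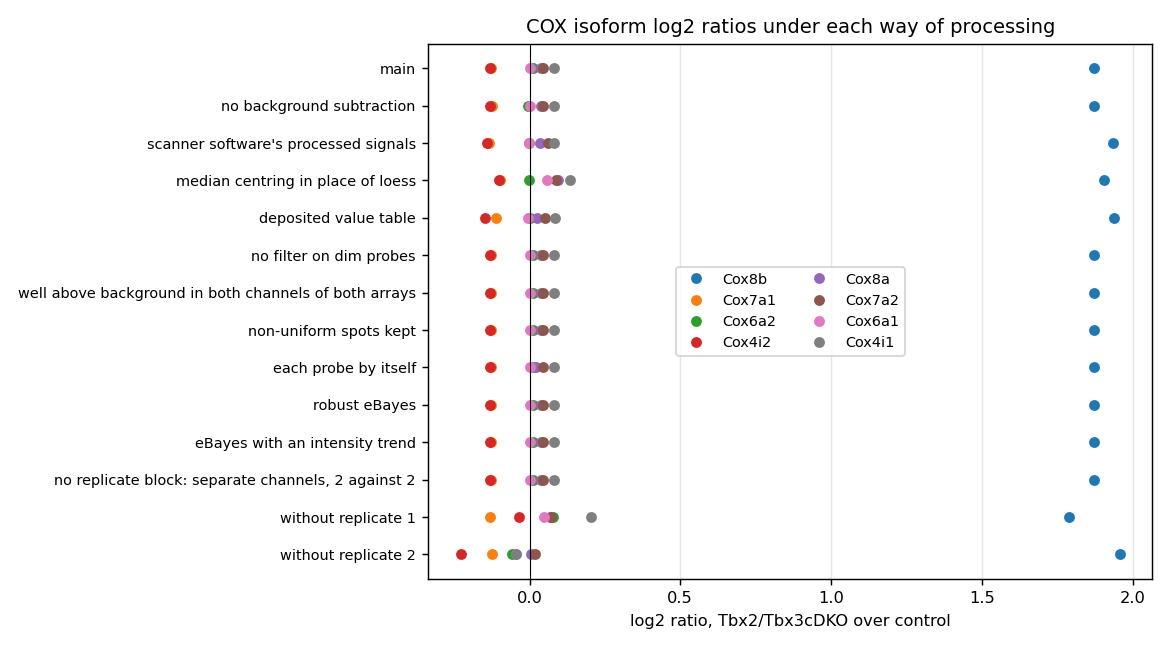
Log2 ratio of labelled Tbx2/Tbx3cDKO over control for the 8 COX isoform genes (colours) under the processing used in the text (top line) and under each of 13 alternatives (1 per line). Cox8b lies between 1.79 and 1.96, the values of the single pairs, and the other 7 genes lie between -0.23 and 0.20, and 7 of the lines repeat the top line because those settings cannot alter the ratios (for Cox8a, the line of each probe by itself takes the median of its 2 probes).

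Of the 11 alternatives that kept both pairs, 7 cannot alter the ratio of a given probe (filters, variance models, the joining of probes, separate channels, and the keeping of non-uniform spots, of which these genes had 0). The other 4 were no background subtraction, the processed signals, median centring and the deposited table. Over these 4 the mean log2 ratio of Cox8b lay between 1.87 and 1.94 and that of Cox7a1 between -0.13 and -0.097, with both pairs on the same side of 0 for either gene. The 2 pairs took opposite signs for Cox8a in 3 of the 4, for Cox7a2 and Cox4i2 in 1 of the 4, which was median centring, and for Cox6a2, Cox6a1 and Cox4i1 in 4 of the 4. With median centring the log2 ratios in females and males were 0.43 and -0.24 for Cox8a, 0.28 and -0.10 for Cox7a2, and -0.28 and 0.078 for Cox4i2. No direction is therefore given for these 6 genes. The positions described above for Cox7a2 and Cox4i2 hold for the processing used in the text.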

How the data were processed

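The submitters' processing notes name Agilent Feature Extraction 10.7.3.1 as the software used on these two-colour arrays. The deposited scanner output gives raw spot and local background intensities in 2 dyes, and next to them processed intensities after background subtraction and dye normalization, per the file headers. The authors' deposited table holds a signed fold as a score for every probe on each array, with a minus sign where a ratio under 1 was inverted. How the authors made it, its centring and its floor are unknown from the sources used here. Its column medians were 1 and 1, and its log2 values correlated at 0.984 and 0.986 with the processed signals over 24302 probes well above background, which set its direction as labelled knockout over control.

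Mean intensities were corrected with normexp (offset 50) and normalized by loess within each array. Non-uniform spots (186 and 223) were dropped, the remaining replicate spots averaged, and ratios of the dye-swapped array were turned. Probes with more than 0.5 of their spots well above background in the same genotype on both arrays were kept (25934 of 39396), and the brightest probe stood for a gene. RefSeq (GRCm38.p6) named 28303 genes through the accessions of the probes. Log2 ratios were fitted in R 4.3.3 with limma 3.58.1 (lmFit, eBayes, 1 residual and 5.24 prior degrees of freedom) and adjusted by Benjamini-Hochberg over 20629 genes, with a threshold of 0.05. A filtered-in gene can pass through 1 genotype alone. Errors are SDs over 2 pairs, and the number of arrays limits the precision.

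The COX genes and the 23 lists were chosen with earlier results of these data known. Named genes were the COX isoform genes, Tbx2, Tbx3 and Tbx18, up to 4 called genes of a list (the 2 largest where none passed), the 5 nearest in ratios to Cox8b and to Cox7a1, and the 2 tested neighbours of Cox8b on each side. Ndufa4, Ndufb4, Myod1, Myog, Myf5, Rgs5, Abcc9, Cox8c, Ckmt2, Acadm, Dio2, Plin1, Retn and the adipocyte markers below background were added after their values were seen. Motifs for a TATA box and for MEF2 were also tried, without a match in the COX promoters. Pairing needs no check, since both RNAs of a pair share an array. The procedure was tested on simulated intensities and recovered the set changes, but more unchanged genes were called than the threshold allows, and the limit set for that share was widened after the first run. Calls over the whole table may therefore be too many. Alternatives were other background corrections, normalizations, filters, probe rules and variance models, the deposited table, separate channels and each replicate left out, and, added after seeing the data, the striated muscle sum without its brightest gene. The summed level of the neuron and glia list is not reported here.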

Additional observations from a re-analysis of the deposited data

Results flagged for a closer look

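Several genes had log2 ratios of labelled Tbx2/Tbx3cDKO over control on opposite sides of 0 in the 2 pairs. The difference between pairs was not tested, dye orientation differs with sex, and 44.2% of all genes had opposite signs. Among COX isoforms, male minus female was 0.14 for Cox6a2, 0.093 for Cox6a1 and 0.25 for Cox4i1. Among other genes of the respiratory chain it was 0.17 for Cox6b2, 0.25 for Uqcrc1 and 0.24 for Atp5pb. Among cell type markers it was 0.18 for Zic1, 0.54 for Ebf2 and 1.06 for Egfl7, whose ratios were -0.20 in females and 0.85 in males. Next to Cox8b it was -0.24 for Psmd13, 0.23 for Nlrp6 and 0.33 for Pgghg.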

How the results depend on the processing

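The Cox8b log2 ratio lay between 1.87 and 1.94 over the 4 alternatives that could alter it with both pairs kept, and was 1.79 to 1.96 when either replicate was left out, which are the values of the single pairs. That of Cox7a1 was -0.13 with either replicate left out, and moved by more than its very small SD to -0.13 with the processed signals, -0.097 with median centring and -0.11 with the deposited table. The counts of genes passing over the whole table were less stable than 385 higher and 374 lower. They were 249 and 214 with processed signals, 114 and 128 with median centring, 142 and 143 with the deposited table, and 223 and 225 without the replicate block, where the channels were fitted as 2 against 2. The causes were not tested. With a replicate left out 1 array remains with no residual degree of freedom, so no count of calls could be made. Of the lists, the call of Ndufv3 among complex I subunits was lost under 3 alternatives, the number of pericyte calls ranged from 0 to 2, that of higher muscle-type isoforms of other metabolic proteins from 0 to 1 (1 with an intensity trend) and that of lower striated muscle markers from 1 to 4, while the 0 calls for other COX subunits, COX assembly factors, complexes II and III, ATP synthase and biogenesis regulators held in 11 of 11. Median centring put the median of all genes at 0.024. Among the COX isoforms, only Cox6a2 was limited by a signal close to background.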
